A study of Homo sapiens with 3 samples.

Results

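Respiratory complex I was examined through the guide RNAs of a pooled knockout screen that target genes whose symbols begin with NDUF, leaving out NDUFV3. These were 136 of the 62916 guides of the library, against 46 genes. Of these, 115 guides targeted 39 genes of the subunit series (NDUFA, NDUFB, NDUFC, NDUFS and NDUFV) and 21 guides targeted the 7 assembly factor genes named NDUFAF. The rule uses gene names and no measured value. Of the 46 genes, 44 had 3 guides, while NDUFC2 and the readthrough gene NDUFC2-KCTD14, which share sequence, had 2 each. All were guides of the GeCKO library's A set, identified in the deposited tables by a running number. Reads are given below in the order of these numbers.

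Complex I is the entry point of the mitochondrial respiratory chain. It takes electrons from NADH through a bound flavin and a chain of iron-sulfur clusters in an arm that reaches into the matrix, passes them to ubiquinone, and pumps protons through an arm that lies in the inner membrane. A small catalytic core is conserved from bacteria, many supernumerary subunits surround it, and assembly factors help to build it without remaining in the finished enzyme. Proliferating cells also use respiration to regenerate the NAD+ that aspartate and hence nucleotide synthesis draws on.

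The cells were NUGC3, an established human gastric cancer line, grown in RPMI medium with serum. In a GeCKO screen each guide RNA directs the nuclease Cas9 to cut a gene, and the reads of a guide in genomic DNA measure how many cells carry it. Each of 3 conditions gave 1 library. One was taken at day 0, another after 14 days with DMSO, a drug solvent, and the last after 14 days with RTX at 10 nM. What RTX stands for is not stated in the labels, although the series title speaks of antifolate drugs. Groups follow the sample titles, since a treatment note assigns the 14 days of DMSO to the day 0 group. No condition had a second library, so no difference below has a replicate check, no test between conditions was possible, and the spread between cultures is unknown.

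The day 0 library held 16547572 reads, the DMSO library 18805737 and the RTX library 17344507, with a median of 231, 191 and 212 reads per complex I guide. Over all guides of the library the medians were 230, 251 and 232 reads. The complex I guides stayed detectable almost throughout, with 0 of them at 0 reads at day 0 and 1 in each day 14 library. Log2 ratios below are of normalised reads with 5 added to each side, so that changes of sparsely read guides come out too small, and the level of a gene is the median over its guides with at least 10 normalised reads at day 0. This filter kept 131 of the 136 guides and left every one of the 46 genes with at least 2 guides. It removed 1 guide each of NDUFA4L2, NDUFA8, NDUFB1, NDUFV2 and NDUFAF5. Ratios are relative to all genes, whose median was 0.00 in each comparison. The 991 non-targeting guides that passed, which cut nowhere in the genome, had an SD of 0.53 for DMSO over day 0, 0.56 for RTX over day 0 and 0.64 for RTX over DMSO. Their medians were 0.19, 0.11 and -0.10 in that order.

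As a pool, the subunit guides took a smaller share of reads in both day 14 libraries than at day 0. They took 0.184% of the reads at day 0 (exact 95% binomial interval 0.182 to 0.186), 0.1535% in DMSO (0.152 to 0.155) and 0.164% in RTX (0.162 to 0.1655). The intervals of the 3 libraries did not overlap, and DMSO was the lowest. The NDUFAF guides took 0.0233% at day 0 (0.0226 to 0.0241), 0.0220% in DMSO (0.0214 to 0.0227) and 0.0210% in RTX (0.0204 to 0.0217). For them the DMSO interval overlapped slightly with each of the others, while those of day 0 and RTX did not overlap. Non-targeting guides went the other way, from 1.51% at day 0 to 1.74% in DMSO and 1.61% in RTX. These intervals cover counting error only, and may be too narrow even for that, because PCR reads are not independent molecules.

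Setting the DMSO cells at day 14 against day 0 asks which knockouts the cells tolerated less without drug. A gene is called lost here when its median log2 ratio was at or below -1. In DMSO, 7 of 39 subunit genes (17.9%) were called lost, against 3.42% of the 20150 genes scored, and 0 of 7 NDUFAF genes were. Among them were NDUFB10, NDUFC2, NDUFB2, NDUFB9, NDUFB3 and NDUFA1. No subunit gene and no NDUFAF gene was at or above 1, where 0.109% of all genes were.

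These named genes encode supernumerary subunits of the membrane arm, as do all 20 membrane arm genes listed here. NDUFB10, which folds through disulfide bonds on the intermembrane face of the arm, had guides that started, at day 0, at 112, 385 and 357 reads and came by day 14 to 19, 128 and 225 with DMSO and 112, 247 and 245 with RTX. All 3 guides were lowest in DMSO, and its median log2 ratio of DMSO over day 0 was -1.71, the lowest of the complex, with a guide range of -2.43 to -0.81. NDUFC2, a membrane arm subunit, started at 212 and 255 reads and came to 65 and 112 with DMSO and 67 and 211 with RTX. Its median was -1.55, and one of its guides stayed as low in RTX as in DMSO while the other did not.

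The readthrough gene NDUFC2-KCTD14 gives a further look at the same locus. Its guides started at 203 and 258 reads and came to 154 and 161 with DMSO and 117 and 165 with RTX, and its median in DMSO over day 0 was -0.68. Both guides were lower at day 14 in each arm. In DMSO they lay closer to 0 than both NDUFC2 guides, and in RTX they lay between them. With the guides of both symbols taken as 1 gene, an alternative chosen after the values were seen, the median of NDUFC2 was -1.06.

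NDUFB2, a small subunit of the distal membrane arm, started at 232, 301 and 77 reads and came to 100, 171 and 3 with DMSO and 155, 219 and 14 with RTX. Its median was -1.33, and the guide with 3 reads in DMSO set its lower end of -3.47. NDUFB9, a distal subunit of the LYR family, which binds the mitochondrial acyl carrier protein, started at 200, 457 and 134 reads and came to 87, 313 and 57 with DMSO and 155, 258 and 152 with RTX. Its median was -1.31 with a range of -1.31 to -0.70, so that its guides stood closer together than those of NDUFB10 or NDUFB2.

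NDUFB3 and NDUFA1 were called on guides that did not all point the same way. NDUFB3, also of the distal membrane arm, started at 211, 232 and 18 reads and came to 107, 71 and 65 with DMSO and 113, 83 and 46 with RTX. The guide with 18 reads at day 0 was higher in both day 14 libraries, which gave NDUFB3 the widest guide range of the complex in DMSO, -1.79 to 1.47 around a median of -1.10. With the mean of guides in place of the median, NDUFB3 stood at -0.47. NDUFA1, a small membrane-anchored subunit encoded on the X chromosome, started at 358, 311 and 757 reads and came to 194, 119 and 990 with DMSO and 258, 309 and 560 with RTX. Its most abundant guide was higher in DMSO than at day 0 and its median was -1.02, so NDUFA1 lay just past the call and stood at -0.77 with the mean of guides.

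Of the 7 NDUF genes of the catalytic core, all in the matrix arm, 5 (71.4%) were below 0, against 50.1% of all genes. The median of the 7 was -0.44. NDUFV1, the flavin-carrying subunit that binds NADH, started at 288, 392 and 375 reads and came to 171, 107 and 364 with DMSO and 230, 286 and 276 with RTX. Its median of -0.89 was just short of the call. NDUFV2, an iron-sulfur subunit beside it, started at 360, 109 and 4 reads and came to 236, 85 and 4 with DMSO and 334, 66 and 9 with RTX. The guide with 4 reads was left out, and the median of the others was -0.62. NDUFS8, which carries iron-sulfur clusters toward ubiquinone, started at 120, 11 and 330 reads and came to 53, 16 and 270 with DMSO and 65, 18 and 246 with RTX, with a median of -0.44.

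NDUFS7, NDUFS3 and NDUFS1 of the core were close to 0. NDUFS7, the subunit with the last cluster before ubiquinone, started at 267, 614 and 256 reads and came to 328, 643 and 161 with DMSO and 314, 381 and 146 with RTX, and its median was -0.09. NDUFS3, another subunit of the matrix arm, started at 478, 117 and 352 reads and came to 537, 216 and 286 with DMSO and 457, 111 and 939 with RTX, and its median was 0.01. NDUFS1, the largest subunit of the matrix arm, started at 314, 345 and 207 reads and came to 397, 209 and 339 with DMSO and 214, 255 and 297 with RTX, and its median was 0.18. The guides of each of these 3 genes disagreed in sign, and each had 1 guide below 0 by more than 0.4.

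By position in the enzyme, the 20 membrane arm genes had a median log2 ratio of -0.30 in DMSO over day 0 and the 15 matrix arm genes one of -0.23. All guides of a gene were below 0 for 6 membrane arm and 7 matrix arm genes. The difference between the arms was not tested. Over all 39 subunit genes the median was -0.28, and 30 of them (76.9%) were below 0, where 50.1% of all genes were. All guides were below 0 for 14 of the 39 (35.9%), against 14.6% of all genes. At a looser call of -0.5, 13 subunit genes (33.3%) passed, against 11.8% of all genes.

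At the level of single guides, 26 of the 111 subunit guides (23.4%) were at or below -1 in DMSO over day 0, where 7.6% of all targeting guides and 2.02% of the non-targeting guides were. In the authors' deposited table, 27 of the 115 subunit guides (23.5%) were lower in DMSO at an FDR under 0.05, against 5.92% of all targeting guides and 0.9% of the non-targeting ones. That FDR comes from reads of 2 libraries and compares those libraries, not the conditions. By it, 8 subunit genes had at least 2 guides called, among them NDUFA1, NDUFB10, NDUFB2, NDUFB3, NDUFB9, NDUFC2 and NDUFV1, and 2 genes had all 3 guides called. The shares of all genes with as many guides called were not computed, here or below, so these gene counts have no background beside them. A count test on the recovered reads (edgeR's exact test with a single dispersion taken from the non-targeting guides) called 7 subunit guides lower, among them 1 each of NDUFA5, NDUFA9, NDUFB10, NDUFB11, NDUFB2 and NDUFV1, against 2.06% of all guides. By that test 23 subunit guides were lower at an unadjusted p under 0.05, where 6.63% of all guides were.

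Few subunit guides moved the other way. In DMSO over day 0, 1 of 111 subunit guides (0.901%) was at or above 1, where 2.3% of all targeting guides and 3.53% of the non-targeting guides were. This was the NDUFB3 guide with 18 reads at day 0. At a call of 0.5, 1 subunit gene (2.56%) was higher, against 5.67% of all genes. The authors' deposited table gave 8 subunit guides (6.96%) as higher at an FDR under 0.05, against 9.65% of all targeting guides and 17.6% of the non-targeting guides, and NDUFA8 was the gene with more than 1 of them. The count test (edgeR's exact test) called 0 subunit guides higher after adjustment, where it called 0.128% of all guides. At an unadjusted p under 0.05 it gave 1 subunit guide and 1.8% of all guides.

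Subunit genes outside the called set ranged up to 0.68, the value of NDUFB4 in DMSO over day 0. NDUFB5, at a median of 0.40, was the only subunit gene (2.56%) with all of its guides above 0 there, against 14% of all genes. Single guides that were far below the other guides of their gene in DMSO over day 0 were found in NDUFA5, where 88 reads (guide 38753) became 16 in DMSO and 83 in RTX, in NDUFA9, where 487 became 145 and 274, and in NDUFB11, where 131 became 35 and 117. The other guides of NDUFB11 stood at -0.50 and 0.28. The medians of those 3 genes in DMSO over day 0 were -0.34, 0.14 and -0.50.

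The subunit series also holds 3 genes with other roles. NDUFAB1, the mitochondrial acyl carrier protein that also serves lipoic acid and iron-sulfur cluster synthesis, started at 211, 252 and 240 reads and came to 90, 352 and 220 with DMSO and 173, 334 and 181 with RTX. Its median was -0.28 in DMSO over day 0 and -0.29 in RTX over day 0. NDUFA4, since reassigned to cytochrome c oxidase, started at 333, 64 and 686 reads and came to 710, 32 and 568 with DMSO and 468, 87 and 614 with RTX, with medians of -0.43 and 0.41. NDUFA4L2, a hypoxia-induced relative of NDUFA4, started at only 217, 25 and 6 reads and came to 280, 17 and 2 with DMSO and 217, 43 and 7 with RTX, and its medians were -0.19 and 0.33. None of the 3 reached the call, and the guides of each disagreed in sign in DMSO over day 0.

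The NDUFAF genes ranged from -0.48 to 0.30 with a median of -0.20 in DMSO over day 0, beside -0.28 for the 39 subunit genes. NDUFAF1, which helps to join the early membrane arm, started at 380, 177 and 333 reads and came to 214, 374 and 265 with DMSO and 313, 304 and 206 with RTX. Its median of -0.48 was the lowest of the 7 and came with a guide at 0.90. NDUFAF7, a mitochondrial methyltransferase, started at 96, 189 and 288 reads and came to 56, 223 and 232 with DMSO and 67, 137 and 223 with RTX, and its median was -0.46.

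NDUFAF3 and NDUFAF4 work together on the part of the matrix arm that binds ubiquinone. NDUFAF3 started at 149, 86 and 298 reads and came to 162, 61 and 299 with DMSO and 106, 78 and 295 with RTX, with a median of -0.15 in DMSO over day 0. NDUFAF4 started at 136, 218 and 261 reads and came to 132, 316 and 244 with DMSO and 219, 137 and 226 with RTX, with a median of -0.20. NDUFAF3 was the only NDUFAF gene (14.3%) with all guides below 0 in DMSO over day 0, against 14.6% of all genes. The lowest guide of NDUFAF3 was at -0.61.

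NDUFAF6, a factor for the early membrane arm, started at 172, 538 and 38 reads and came to 165, 720 and 28 with DMSO and 105, 515 and 29 with RTX. Its median in DMSO over day 0 was -0.21. NDUFAF2, a chaperone related to the subunit NDUFA12, started at 150, 82 and 35 reads and came to 213, 109 and 27 with DMSO and 87, 66 and 138 with RTX, and its median was 0.24. NDUFAF5, which hydroxylates NDUFS7, started at 196, 34 and 5 reads and came to 222, 59 and 21 with DMSO and 372, 26 and 0 with RTX, and its median over the pair of guides that passed was 0.30. Its guides were thus not lower in DMSO than at day 0.

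Set against the subunits, 0 of the 20 NDUFAF guides were at or below -1 in DMSO over day 0, beside 26 of the 111 subunit guides and 7.6% of all targeting guides. With 20 guides, a count of 0 lies near that background. By the authors' deposited table, a single one of the 21 NDUFAF guides (4.76%) was lower and another (4.76%) higher at an FDR under 0.05, against 5.92% and 9.65% of all targeting guides. The count test (edgeR's exact test) called 0 of them lower, with 0 at an unadjusted p under 0.05, where 6.63% of all guides were. With 7 genes in a single pair of libraries, the difference between NDUFAF genes and subunits was not tested.

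A further 11 assembly factors without an NDUF name were listed by function. Their median in DMSO over day 0 was 0.05, and, beside 3.42% of all genes, 1 of the 11 (9.09%) was called lost. This was FOXRED1, a factor that resembles flavin-dependent oxidoreductases, at -1.05. NUBPL, which delivers iron-sulfur clusters to complex I, stood at -0.84 and TIMMDC1, a membrane arm factor, at -0.82, while ACAD9 and ECSIT, partners of NDUFAF1, stood at 0.65 and 0.05. Thus 7 of the 33 guides of these genes (21.2%) were at or below -1, beside 23.4% of the subunit guides and 0% of the NDUFAF guides. Over all targeting guides the share was 7.6%. In RTX over day 0, 0 of the 33 guides were at or below -1, beside 5.36% of all targeting guides.

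The comparison of RTX at day 14 with day 0 shows the same knockouts under drug. Here 0 of 39 subunit genes and 0 of 7 NDUFAF genes were called lost, beside 1.39% of all genes. None was at or above 1, where 0.62% of all genes were, or at or above 0.5, where 6.75% were. The lowest members were NDUFC2 at -0.94, NDUFB3 at -0.88, NDUFA6, a LYR protein of the matrix arm, at -0.72, NDUFC2-KCTD14 at -0.71 and NDUFS7 at -0.69. In this comparison the 7 genes called lost in DMSO stood between -0.94 and -0.36, with NDUFB2 at -0.57, NDUFB10 at -0.54, NDUFA1 at -0.44 and NDUFB9 at -0.36. Since those 7 were picked for low values in DMSO, their ratios nearer to 0 in RTX are given as a description.

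The middle of the subunit distribution lay close together in both arms. The median over 39 subunit genes in RTX over day 0 was -0.23, beside -0.28 in DMSO over day 0, and 32 of the 39 (82.1%) were below 0, where 50.4% of all genes were. All guides were below 0 for 11 subunit genes (28.2%), against 14% of all genes, among them NDUFV1 and NDUFV2 of the core. The 7 core genes were all below 0, from -0.69 to -0.07 with a median of -0.44. At the looser call of -0.5, 8 subunit genes (20.5%) passed, against 8.99% of all genes. Day 0 serves as the control in both comparisons, so they are given side by side and not correlated.

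The counts past -1 lay further apart between the arms, a difference that was not tested. In RTX, 8 of 111 subunit guides (7.21%) were at or below -1, where 5.36% of all targeting guides and 2.72% of the non-targeting guides were. Of the 26 subunit guides past -1 in DMSO and the 8 in RTX, 6 were in both sets, which is 23.1% of the first and 75% of the second. Over all targeting guides the overlap was 25% of those past -1 in DMSO and 35.5% of those past -1 in RTX. In the authors' deposited table, 9 of 115 subunit guides (7.83%) were lower in RTX than at day 0 at an FDR under 0.05, against 4.08% of all targeting guides and 1.5% of the non-targeting guides. The count test called 2 subunit guides lower, against 0.664% of all guides, and these were the NDUFB2 guide with 14 reads in RTX and an NDUFS4 guide that went from 164 reads to 71 with DMSO and 36 with RTX. At an unadjusted p under 0.05 edgeR's exact test gave 7 subunit guides and 4.24% of all guides as lower.

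In the other direction, 2 of 111 subunit guides (1.8%) were at or above 1 in RTX over day 0, where 3.18% of all targeting guides and 3.03% of the non-targeting guides were. They were the NDUFS3 guide with 939 reads in RTX and the same NDUFB3 guide as in DMSO. By the authors' deposited FDR, 6 of 115 subunit guides (5.22%) were higher, against 11% of all targeting guides and 13.5% of the non-targeting guides. The count test (edgeR's exact test) called 0 of them higher after adjustment, where it called 0.193% of all guides. At an unadjusted p under 0.05 it gave 1 of them and 2.48% of all guides.

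For the NDUFAF genes the median of RTX over day 0 was -0.28, and they ranged from -0.46 for NDUFAF7 to 0.28 for NDUFAF5. Below 0 were 6 of 7 (85.7%), against 50.4% of all genes. All 3 guides were below 0 for NDUFAF3, NDUFAF6 and NDUFAF7 (42.9%), against 14% of all genes with all guides below 0. The subunit median was -0.23, and the difference was not tested. With the mean of guides in place of the median the NDUFAF value was -0.07. Of the 20 NDUFAF guides 0 were at or below -1, against 5.36% of all targeting guides. At or above 1 was 1 NDUFAF guide (5%), against 3.18% of all targeting guides. It was the NDUFAF2 guide with 138 reads in RTX, at 1.83.

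Setting RTX against DMSO at day 14 asks which knockouts were more or less abundant with the drug. A gene is called higher here at a median log2 ratio of at least 1. NDUFB10 was the only one of the 39 subunit genes (2.56%) called higher, at 1.06 with a guide range of 0.26 to 2.41, beside 2.75% of all genes, and 0 of 7 NDUFAF genes were. NDUFB9 at 0.93 was just short. That share is close to the one over all genes and is not a result about complex I. At or below -1 were 0 subunit genes and 0.844% of all genes. With a pseudocount of 20 NDUFB10 stood at 0.98 and no subunit gene was called.

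The subunits were nevertheless more often above than below 0 in RTX over DMSO. Their median was 0.12, or 0.24 with the mean of guides and 0.22 relative to the non-targeting guides, and 13 of 39 (33.3%) were below 0, where 50.3% of all genes were. At a looser call of 0.5, 10 subunit genes (25.6%) passed, against 13% of all genes. Among these were NDUFB10, NDUFB9, NDUFB2, NDUFA10, NDUFC2, NDUFV1, NDUFA1, NDUFA6 and NDUFA4L2. All guides were above 0 for 6 subunit genes (15.4%), against 13.9% of all genes. NDUFS4, an accessory subunit at the tip of the matrix arm, was the lowest at -0.76, with guides that disagreed in sign. It was the single subunit gene (2.56%) at or below -0.5, where 9.77% of all genes were.

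Guide by guide, 18 of 111 subunit guides (16.2%) were at or above 1 in RTX over DMSO, where 7.95% of all targeting guides and 4.24% of the non-targeting guides were. At or below -1 were 3 subunit guides (2.7%), against 5.42% of all targeting guides and 6.05% of the non-targeting guides. The authors' deposited table gave 25 of 115 subunit guides (21.7%) as higher at an FDR under 0.05, against 14% of all targeting guides and 8.3% of non-targeting ones, and NDUFA10, NDUFB10 and NDUFB9 had 2 guides each among them. The share of all genes with 2 guides called was not computed. It gave 1 subunit guide (0.87%) as lower, against 4.27% of all targeting guides and 5.3% of the non-targeting guides. The count test called 1 subunit guide higher, the NDUFB10 guide that went from 19 reads in DMSO to 112 in RTX, against 0.922% of all guides. This test (edgeR's exact test) called 0 subunit guides lower after adjustment, where it called 0.391% of all guides. At an unadjusted p under 0.05 edgeR's exact test gave 2 subunit guides and 2.96% of all guides as lower. As higher it gave 10 subunit guides and 4.86% of all guides. The NDUFB10 guide had 112 reads at day 0, the same number as in RTX before scaling. This comparison shares the DMSO library with DMSO over day 0, so a low DMSO value lowers the one ratio and raises the other.

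For the NDUFAF genes the median of RTX over DMSO was -0.03, from -0.55 for NDUFAF2 to 0.12 for NDUFAF3. The sign of this median turned with the scaling, to 0.07 relative to the non-targeting guides, and with a pseudocount of 20, to 0.03. NDUFAF2 combined the widest guide range of all members here, -1.11 to 2.29, with guide 38774 going from 27 reads in DMSO to 138 in RTX and its other guides lower in RTX. The count test called that guide higher and no other NDUFAF guide, against 0.922% of all guides called higher and 0.391% called lower. Among the other assembly factors FOXRED1 was at 1.08 and ACAD9 at -1.28, and the median of the 11 was 0.11.

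Other lists of mitochondrial genes, chosen by symbol, give a scale for these values. Those of complexes II, III and IV mix subunits with assembly factors, such as SDHAF1, BCS1L and SURF1, unlike the subunit list of complex I. In DMSO over day 0, the 74 mitochondrial ribosome genes had a median of -0.54 with 16 called lost (21.6%), and the 22 genes of complex IV one of -0.56 with 2 called lost (9.09%). The 13 genes of complex III stood at -0.28 with 1 called (7.69%), the 17 of complex V at -0.27 with 2 (11.8%) and the 6 of complex II at -0.18 with 0. Of all genes, 3.42% were called lost there. In RTX over day 0, 0 genes of any of these 5 lists were called lost, as for complex I, beside 1.39% of all genes. The medians of the 5 lists lay between -0.28 and -0.08. The subunit median of -0.28 in DMSO over day 0 lay beside those of complexes III and V. In RTX over DMSO the medians were 0.28 for the ribosome, 0.28 for complex IV, 0.17 for III, 0.11 for II and 0.07 for V. That of the complex I subunits was 0.12. Below 0 there were 28.4%, 31.8%, 23.1%, 50% and 47.1% of genes in that order, beside 33.3% of subunit genes. No difference between these lists was tested, and genes of chromosome 21 were left out of those of complex V and the ribosome. The complex V list, taken by its symbols, also holds ATP5SL, which is among the 11 assembly factors.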

How the data were processed

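Guide reads from genomic DNA of 3 NUGC3 libraries were used. The authors deposited 3 tables, 1 per pair of libraries, made with MAGeCK 0.5.7, which the submitters' processing notes name together with the build hg19. Counting settings were not given in the sources used here. The tables hold, per the file headers, control and treatment values, a signal that behaves as reads divided by 1 size factor per library, and the authors' FDR (q-value) per guide. Dividing by the value of 1 read gave whole reads within 0.1 for at least 99.9968% of values in every column.

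Log2 ratios used a pseudocount of 5 and guides with at least 10 normalised reads at day 0 (62610 of 62916). A gene's value is the median of at least 2 guides, for 20150 genes; 23 date-like names were left out. Calls use a log2 ratio of 1 and no test, because each condition was 1 library. The count test (edgeR 4.0.16, R 4.3.3) ran on recovered reads with Benjamini-Hochberg adjustment over all guides, with TMM scaling and 1 dispersion from the non-targeting guides; with 1 library per group it compares libraries. Scripts were tested on simulated data. Members, lists, calls and the rule for named genes (the 7 core genes, NDUFAF genes, NDUFAB1, NDUFA4, NDUFA4L2 and every member past 1) were chosen with earlier results of these data known; other genes are named for a count or range. Counts and medians cover all members; the values of 1 member are not reported here. Alternatives were pseudocounts of 1 and 20, other filters, the mean of guides, 2 other scalings, a call at 0.5, at least 3 guides, and the subunits without the 3 genes of other roles. Older symbols were matched through the RefSeq table of GRCh38.p14. Guide sequences and coordinates are not used here.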

Additional observations from a re-analysis of the deposited data

How the results depend on the processing

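Each condition was 1 library, so no replicate could be left out. No paired analysis was possible because each group holds 1 library, so fewer than 2 numbers are shared, and the labels give no replicate numbers. NDUFB10, NDUFB2, NDUFB9 and NDUFC2 stayed at or below -1 in DMSO over day 0 under all alternatives that scored them; NDUFC2, with 2 guides, has no value where 3 are required. NDUFA1 did not with a pseudocount of 20 or the mean of guides, and NDUFB3 did not with the mean. In the other direction, NDUFV1, at -0.89 in the main setting, came to -1.02 with the mean of guides. It came to -1.08 with scaling to the non-targeting guides, so it was past the call under both. Scaling to the non-targeting guides moved the median of all genes to -0.19 for DMSO over day 0, -0.11 for RTX over day 0 and 0.10 for RTX over DMSO. The medians for DMSO over day 0 were then -0.47 for subunits and -0.38 for NDUFAF genes, 1 subunit gene (NDUFC2 at -1.04) was lost in RTX, beside 1.95% of all genes, and 2 were higher in RTX over DMSO, beside 3.75%. The subunit median for RTX over DMSO was then 0.22, and 0.24 with the mean of guides, in place of 0.12. In RTX over day 0, 1 subunit gene was also lost with a filter of 50 reads (NDUFB3 at -1.16), beside 1.38% of all genes, and with the mean of guides (NDUFB2 at -1.05), beside 1.45%, and the mean moved the NDUFAF median to -0.0714. A pseudocount of 20 left 0 subunit genes higher in RTX over DMSO, beside 1.88% of all genes. A call at 0.5 gave 13, 8 and 10 subunit genes for DMSO over day 0, RTX over day 0 and RTX over DMSO, beside 11.8%, 8.99% and 13% of all genes. The count test, added after the data were seen, gave 7, 2 and 1 subunit guides in place of 26, 8 and 18, beside 2.06%, 0.664% and 0.922% of all guides, and the authors' FDR gave 1 NDUFAF guide (4.76%) lost in DMSO in place of 0, beside 5.92% of all targeting guides, and 4 (19%) higher in RTX over DMSO in place of 1, beside 14%. The other 101 values of these counts and medians stayed within 1.5 times for counts, and for medians within the counting interval of a member gene with the median number of reads. Guides with few reads at day 0 limit NDUFV2, NDUFA4L2, NDUFAF5 and NDUFS8.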

Other observations

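Single guides of some complex I genes were more abundant at day 14 than at day 0. They were singled out after their values were seen. Guide 38762 of NDUFA8, a subunit of the intermembrane face, was left out by the filter on day 0 reads and went from 8 reads to 107 with DMSO and 36 with RTX. Its other guides went from 302 reads to 549 and 391, and from 210 to 112 and 230. Guide 38840 of NDUFS3 went from 352 reads to 286 with DMSO and 939 with RTX, a log2 ratio of 1.84 for RTX over DMSO, while the other guides of NDUFS3 stood at -0.09 and -0.79. Guide 38770 of NDUFAF1 went from 177 reads to 374 and 304, and guide 38842 of NDUFS4 from 194 to 420 and 219. In NDUFA8, NDUFAF1 and NDUFS4 another guide of the same gene was lower in DMSO than at day 0.

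Guides of the same gene often disagreed. The median distance between the highest and lowest guide of a subunit gene was 1.36 on the log2 scale in DMSO over day 0, 0.80 in RTX over day 0 and 1.16 in RTX over DMSO. For NDUFAF genes it was 0.78, 1.24 and 0.92. The widest distances in the 3 comparisons were 3.26 for NDUFB3, 2.59 for NDUFAF2 and 3.40 for NDUFAF2. Such distances were not computed over all genes, so they have no background beside them and are not a result about complex I.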
